A study of Mus musculus with 12 samples.

Results

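Of the 93954 stretches of open chromatin found on chromosomes 1 to 11 and 13 to 19, 24911 carried a peak in all 12 libraries, and 9573 of these touched the 1000 bp on either side of an end of a protein-coding gene. These 9573 constant regions at gene ends made up 10.2% of all regions and 38.4% of the constant ones. Peaks that overlapped or touched in any library had been merged into a region, and the calls in the 12 lists chose the members, so their presence is a description and was not tested. The strength of each region within its library, and how that strength differed between the conditions, was not used in the choice, except that a member had to reach the calling threshold everywhere.

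The libraries were made by ATAC-seq, in which a transposase inserts sequencing adapters into accessible DNA, from the mouse macrophage line RAW264.7. Its cells stably carried a doxycycline-inducible Nur77 (the nuclear receptor encoded by Nr4a1) or a doxycycline-inducible green fluorescent protein (GFP). The 4 groups were Nur77 cells given lipopolysaccharide (LPS, a bacterial endotoxin), untreated Nur77 cells, GFP cells given LPS and untreated GFP cells, with 3 libraries each. Every group, GFP controls included, had received 1 µg/ml doxycycline for 18 h, and LPS was given at 500 ng/ml for 1 h. Nothing in the labels says that the 3 libraries of a group came from separate cultures, so the p-values measure the spread between these libraries, which may be technical, and each line is a stable transfectant of a single parental line.

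Promoters of widely used genes are commonly CpG islands, GC-rich stretches that hold off nucleosomes and stay accessible whether or not a cell is stimulated. LPS acts through Toll-like receptor 4 to bring NF-kB and AP-1 factors to cytokine promoters and enhancers within the hour, while interferon regulatory factors act at chemokine and GTPase genes. Nur77 is an orphan receptor that LPS itself induces in macrophages and that is known for restraining inflammatory gene expression there.

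The promoters of 7 members are shown because they carry the main contrasts described below: 3 whose rank was higher after LPS, 2 at histone genes, of which H1f3 ranked lower and H2ac18 did not pass the test but adjoins a member that did, and 2 among the strongest in every library. The RefSeq windows on GRCm38.p6 run from 250 bases before to 50 after the gene start, 5′ to 3′ on the gene's strand, and capitals mark motif letters, which were searched on both strands, so that a capital run can also be the reverse complement of the letters named. The windows are Cxcl10 at chr5:92348840-92349139 on the minus strand, Cxcl2 at chr5:90903649-90903948, Gbp2 at chr3:142620413-142620712, H1f3 at chr13:23554782-23555081, H2ac18 at chr3:96245247-96245546, Ensa at chr3:95624730-95625029 and Sp1 at chr15:102406066-102406365, the last 6 on the plus strand. In Cxcl10 and Gbp2 the capitals are NF-kB consensus and interferon-response matches (GAAA, any 2 bases, GAAA), in Cxcl2 NF-kB consensus matches, in the histone genes CCAAT and TATAAA, in Ensa GGGCGG, and in Sp1 GGGCGG and CCAAT, which overlap once. Only these motifs are marked in each window, and matches to other motifs stay in lower case. Among those left unmarked are CCAAT in Ensa, the AP-1 letters TGANTCA in Cxcl10 and Gbp2, and GGGCGG in Cxcl2 and H2ac18.
Cxcl10: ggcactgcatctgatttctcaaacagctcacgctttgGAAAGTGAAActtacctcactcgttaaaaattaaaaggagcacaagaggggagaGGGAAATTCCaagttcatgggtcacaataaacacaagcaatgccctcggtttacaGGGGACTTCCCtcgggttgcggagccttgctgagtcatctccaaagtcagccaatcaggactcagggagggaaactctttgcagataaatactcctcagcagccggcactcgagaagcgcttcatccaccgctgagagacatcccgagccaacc
Cxcl2: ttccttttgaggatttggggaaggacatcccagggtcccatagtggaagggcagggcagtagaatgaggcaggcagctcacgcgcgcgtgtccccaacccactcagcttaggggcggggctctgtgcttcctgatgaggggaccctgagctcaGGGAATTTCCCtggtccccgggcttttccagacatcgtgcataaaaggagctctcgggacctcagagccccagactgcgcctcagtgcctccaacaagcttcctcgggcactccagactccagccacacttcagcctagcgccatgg
Gbp2: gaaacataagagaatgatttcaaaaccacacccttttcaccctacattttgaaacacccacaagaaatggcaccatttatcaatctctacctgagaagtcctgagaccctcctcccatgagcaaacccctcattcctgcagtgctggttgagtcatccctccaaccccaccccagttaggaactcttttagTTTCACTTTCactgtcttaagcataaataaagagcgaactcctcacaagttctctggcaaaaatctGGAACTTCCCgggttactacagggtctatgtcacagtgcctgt
H1f3: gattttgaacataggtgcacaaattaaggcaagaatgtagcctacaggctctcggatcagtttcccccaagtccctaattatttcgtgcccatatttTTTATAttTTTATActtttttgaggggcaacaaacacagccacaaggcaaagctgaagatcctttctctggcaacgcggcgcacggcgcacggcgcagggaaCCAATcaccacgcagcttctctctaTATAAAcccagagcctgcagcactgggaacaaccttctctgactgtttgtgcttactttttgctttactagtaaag
H2ac18: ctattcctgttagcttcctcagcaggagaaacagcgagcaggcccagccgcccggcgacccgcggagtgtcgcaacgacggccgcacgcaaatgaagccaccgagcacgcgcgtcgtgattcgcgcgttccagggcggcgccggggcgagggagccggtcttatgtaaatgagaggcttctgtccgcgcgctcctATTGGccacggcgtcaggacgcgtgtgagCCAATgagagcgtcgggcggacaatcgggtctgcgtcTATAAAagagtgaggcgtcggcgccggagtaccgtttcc
Ensa: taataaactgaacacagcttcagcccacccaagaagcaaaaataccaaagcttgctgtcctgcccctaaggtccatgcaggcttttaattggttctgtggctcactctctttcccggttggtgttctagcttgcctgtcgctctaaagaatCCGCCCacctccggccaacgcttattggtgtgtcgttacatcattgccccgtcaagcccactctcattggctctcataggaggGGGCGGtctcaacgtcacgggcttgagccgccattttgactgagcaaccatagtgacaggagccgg
Sp1: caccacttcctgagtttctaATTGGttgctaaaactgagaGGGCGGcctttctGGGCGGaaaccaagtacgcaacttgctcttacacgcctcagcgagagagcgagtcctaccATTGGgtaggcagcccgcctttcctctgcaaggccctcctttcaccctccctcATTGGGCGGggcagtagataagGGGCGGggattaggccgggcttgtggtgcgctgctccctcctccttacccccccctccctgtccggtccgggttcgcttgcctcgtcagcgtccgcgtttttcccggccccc

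A library was represented by its peak list, of 36236 to 81531 peaks. The depth behind the lists is unknown, and the lists differed in length, so strength is given as a percentile: the rank of a region's strongest peak by the authors' −log10 q among the 24911 constant regions of that library, with 100 as the strongest. Libraries of the same group had mean correlations of normal scores of 0.931 to 0.966, and libraries of different groups 0.898 to 0.934. The line labels were checked at Nr4a1, where a region inside the gene at chr15:101270092-101272260 had a peak in 6 of the 6 libraries from Nur77 cells and in 0 of the 6 from GFP cells; it lies away from the gene's ends and is no member. The macrophage label was checked against 10 defining genes (Spi1, Csf1r, Cd68, Lyz2, Adgre1, Itgam, Cebpb, Irf8, Fcgr1 and Mertk), of which 10 had a member. Among markers of other cell types, 2 of 6 T cell genes (Cd3d and Cd4), 1 of 5 B cell genes (Cd79a), 1 of 6 fibroblast genes (Col1a1), 0 of 4 epithelial genes and 1 of 4 neuronal genes (Tubb3) had one. Of all protein-coding genes 51.8% had a member, and the region at Cd68 is shared with Eif4a1, Mpdu1 and Senp3. The macrophage marker members had a median mean percentile of 49.9, and the member at Cd79a stood at 91.5.

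Members were wide. Their median width was 2094 bp, with quartiles of 1575 and 2905 bp, against 1435 bp for the 15338 constant regions away from gene ends and 641 bp for the 5603 gene-end regions missing from at least 1 list. Because a member spans every peak merged into it, its width grows with the longest list, and the strongest peak need not sit at the same spot in every library. The strongest summit varied over a median of 105 bp across the 12 libraries, in 48.1% of members over at most 100 bp and in 87.9% over at most 500 bp. Some members named below moved further: Srebf1 over 2521 bp, Nectin3 over 1807, Gramd2 with Pkm over 1800 and Rfc2 over 1387. Ranks of such members may compare different peaks. A member touched the ends of 1 gene in 7432 cases (77.6%), of 2 genes in 1991 (20.8%) and of 3 or more, up to 5, in 150 (1.57%).

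Most members were promoters. Gene strand was known for 15869 of 19986 protein-coding genes, and 6983 members (72.9%) took in a window around a gene start, 791 (8.26%) reached a 3′ end only, and 1799 (18.8%) touched genes whose strand was not given. At the 6055 members with a single start, the strongest summit lay a median of −1 to 22 bp from it, depending on the library, with negative values upstream. Between 42.1% and 49.1% of these summits fell within 100 bp of the start and 69.2% to 72.2% within 250 bp, while the median summit of 675 members lay more than 1000 bp away. A further 863 members held starts of 2 or more genes on opposite strands, called divergent here.

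**Figure D1:**
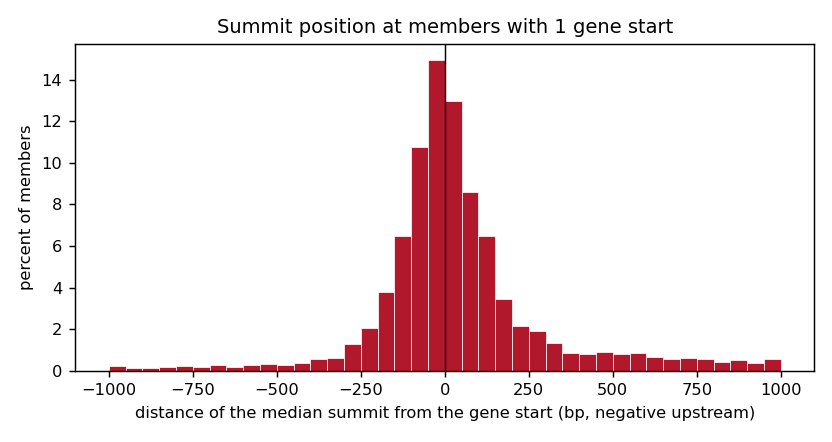
Distance in bp of the median strongest summit over 12 libraries from the gene start, in bins of 50 bp, for the 6055 members with a single start; bars give the percent of those members and negative distances lie upstream. The distribution is centred on the start, and the 675 members beyond 1000 bp are off the axis.

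Gene ends ranked high among constant regions. The median member stood at the 66.0th to 71.9th percentile of a library, against 37.0 to 40.4 for constant regions away from gene ends. Between 18.1% and 20.5% of members were among the strongest 10% of a library, against 3.49% to 5.05% of the other constant regions. The authors' fold enrichment of the median member was 24.8 to 57.7, against 14.3 to 29.0. By group, the lowest, median and highest library medians were 67.8, 68.4 and 70.1 in Nur77 cells with LPS, 69.2, 71.7 and 71.9 in untreated Nur77 cells, 66.0, 66.6 and 66.7 in GFP cells with LPS, and 69.7, 70.9 and 70.9 in untreated GFP cells. The GFP libraries with LPS lay below all the untreated libraries, and the highest Nur77 library with LPS overlapped the untreated ones.

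**Figure D2:**
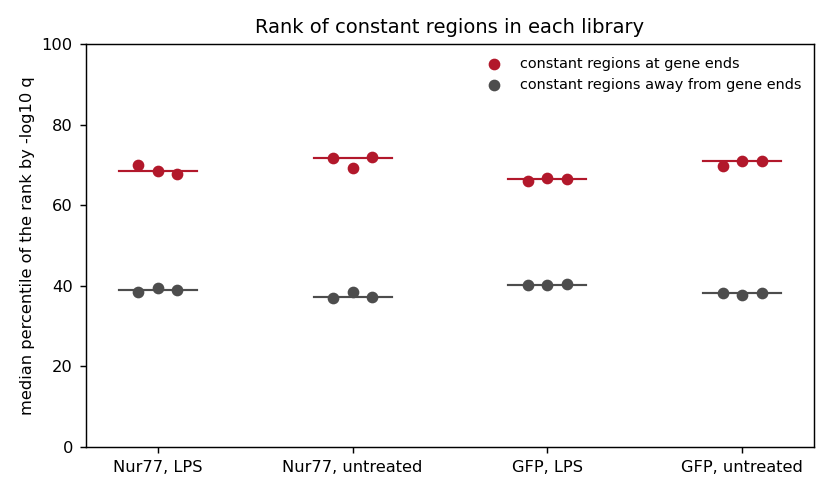
Median percentile of the rank by −log10 q in each library (points) for constant regions at gene ends (red) and away from them (grey), with the line at the median of the 3 libraries of a group. Gene-end medians lie between 66.0 and 71.9 in all 12 libraries, above the 37.0 to 40.4 of the other constant regions.

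Rank at gene ends went with the kind of end. Members at a gene start had a median mean percentile of 72.9, those with divergent starts 82.1, and those at a 3′ end only 37.2. The range of a member's percentile over the 12 libraries had a median of 25.4 points among members with a mean percentile of 0 to 25, 30.8 points at 25 to 50, 22.8 at 50 to 75, 13.6 at 75 to 90 and 5.22 at 90 to 100. Other constant regions had 25.4, 34.7, 26.4, 15.8 and 6.91 points in the same bins. A percentile cannot move far at either end of its scale, which bears on these ranges.

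Genes that nearly all cells use mostly had a constant end. Of all protein-coding genes, 10343 of 19986 (51.8%) had a member. Against that share stood 73 of 76 genes of cytosolic ribosomal proteins, 34 of 35 proteasome genes, 81 of 90 respiratory chain and ATP synthase genes, 71 of 73 genes of RNA polymerase, mediator and TFIID subunits, 40 of 42 splicing genes, 32 of 33 tRNA synthetases, 44 of 50 translation initiation factors, 9 of 9 subunits of the CCT chaperonin and 6 of 6 MCM helicase subunits. Histone genes had 69 of 75, through 43 members, since clustered histone genes share a region. At the other end, 7 of 1101 olfactory receptor genes, 2 of 352 vomeronasal receptor genes, 1 of 53 keratins and 1 of 70 defensins had a member.

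Genes of the macrophage's own programme also mostly had one. Members lay at 16 of 18 regulators of the lineage, 15 of 20 surface and phagocytic genes, 19 of 19 NF-kB pathway and feedback genes, 27 of 28 immediate early genes, 19 of 28 cytokine, chemokine and effector genes, and 25 of 29 genes of lipid and energy metabolism. The median mean percentile was 82.4 for the regulators and 48.6 for the surface genes, 83.2 for the NF-kB genes, 89.0 for the immediate early genes, 65.2 for the cytokine list and 83.6 for the metabolic list.

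The highest mean percentile was that of Ensa, which encodes an inhibitor of the phosphatase PP2A in mitosis, with percentiles of 99.97 to 99.99 and the smallest range of all members, 0.024 points. Sap130 (a subunit of the Sin3 corepressor), Sp1 (a zinc finger factor that binds the GGGCGG box), Khsrp with Slc25a41, Zfp687 and Nectin2 with Tomm40 were close to it, with lowest percentiles of 99.82 to 99.95 over the 12 libraries. The authors' fold at Ensa ran from 239.6 to 494. A further member of this group, at the 3′ end of Lars2 at chr9:123461793-123462188, was the narrowest of all members at 396 bp, with folds of 212 to 545 and a summit that moved by 6 bp over the 12 libraries. Whether the authors applied a list of excluded regions is not given in the sources used here. Whether the signal at Lars2 reflects open chromatin was not tested. The weakest members by mean percentile were Gfy with Pth2 at 1.07, Syne4 at 1.62, Calhm6 at 2.22 and Nup210l with Tpm3 at 2.48.

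Promoter windows that overlapped a member differed in sequence from those that did not, and a gene can have windows in both sets. RefSeq gave 19362 promoter windows on these chromosomes, and 8691 of them overlapped a member. Median GC content was 62.0% in members and 51.3% outside them, and the median ratio of observed to expected CpG was 0.80 in members and 0.28 outside. A ratio of at least 0.6 was found in 79.7% of windows in members, 23.3% outside and 48.6% of all windows.

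Short motifs differed too. GGGCGG, the box bound by Sp and Klf factors, occurred in 68.5% of windows in members against 46.9% of all windows, and CCGGAAG, an ETS family core, in 21.5% against 11.9%. TATAAA was rarer, at 6.14% against 12.8%, and so was the AP-1 site TGANTCA, at 4.50% against 7.10%. The NF-kB consensus was found in 10.9% of windows in members and in 9.39% of all windows, and AAAGGTCA, the element that Nur77 binds as a monomer, in 0.81% and 1.29%. Of the members shown above, Ensa has 2 GGGCGG matches and Sp1 has 4. A match of letters is not a bound site, and motif shares were not adjusted for GC content.

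After 1 h of LPS, 532 members (5.56%) ranked higher and 1477 (15.4%) ranked lower than in untreated cells, averaged over both lines, by limma on normal scores of the ranks with Benjamini-Hochberg adjustment at 0.05 over all 24911 constant regions. Over all constant regions 14.3% were higher and 14.7% lower, so the members' share of lower calls was near the background and their share of higher calls was below it. Constant regions away from gene ends held 3026 higher (19.7%) and 2195 lower (14.3%). A normal score spreads ranks as a bell curve does, and the median LPS change over members was −0.09, against −0.04 over all constant regions. More accessible alleles and more cells with an open region cannot be told apart in these bulk libraries.

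The balance of the calls depends on what a region is ranked against. Ranked among members only, 664 rose and 567 fell, and ranked among all peaks of each list, 271 rose and 235 fell. All 271 and all 235 were also called under the other rankings, so these are the members whose change did not rest on the set ranked. Of the 532 called higher, 529 had the same sign in both lines, with a median change of 0.48 in the Nur77 line and 0.49 in the GFP line. Of the 1477 called lower, 1470 had the same sign in both lines. The calls were made on the mean over both lines, which favours a shared sign, so these counts are no separate support.

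The 8 members with the largest rise were Zmynd15, Mmp14, Cxcl10, Ccl4, Fas, Cep350, Gbp2 with Gbp2b, and Il4i1. Cxcl10 (chr5:92344226-92349964), an interferon-induced chemokine, stood at 89.0, 88.3 and 90.2 in Nur77 cells with LPS and at 73.3, 83.4 and 84.6 in GFP cells with LPS, against 23.3, 13.2 and 23.2 in untreated Nur77 cells and 5.24, 2.01 and 8.38 in untreated GFP cells. Its range of 88.2 points was the largest of all members, and all 6 libraries with LPS lay far above the 6 untreated ones (change 2.33 ± 0.12, SE, adjusted p = 1.74e-15). Ccl4 (chr11:83660452-83669559), a chemokine for lymphocytes and monocytes, stood at 98.2 to 99.8 with LPS and 55.7 to 65.6 untreated (2.15 ± 0.09, adjusted p = 2.28e-17). Fas (chr19:34289795-34291395), the death receptor, ranged over 88.0 to 94.4 with LPS and 12.1 to 47.9 untreated (2.13 ± 0.10, adjusted p = 1.01e-16).

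The other 5 stood lower in the untreated libraries than Ccl4 did. The region of Gbp2 and Gbp2b, interferon-induced GTPases, ranged over 44.8 to 71.1 with LPS and 1.09 to 7.65 untreated (2.02 ± 0.16, adjusted p = 2.11e-11). Il4i1, a secreted amino acid oxidase, ranged over 75.3 to 89.1 with LPS and 6.41 to 28.6 untreated (adjusted p = 1.34e-14). Zmynd15 (chr11:70466229-70469064) had the largest change of all members, with 75.4 to 88.8 after LPS and 5.24 to 21.8 untreated (2.39 ± 0.12, adjusted p = 7.29e-16). A region at the 3′ end of Mmp14, a membrane-bound matrix metalloproteinase, ranged over 78.4 to 85.1 with LPS and 2.10 to 16.5 untreated (2.36 ± 0.15), and Cep350, which encodes a centrosomal protein, over 58.1 to 60.8 and 0.60 to 13.2 (2.09 ± 0.15). In these 8 members the libraries with LPS did not overlap the untreated ones, and all 8 passed under each of the 3 rankings.

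**Figure D3:**
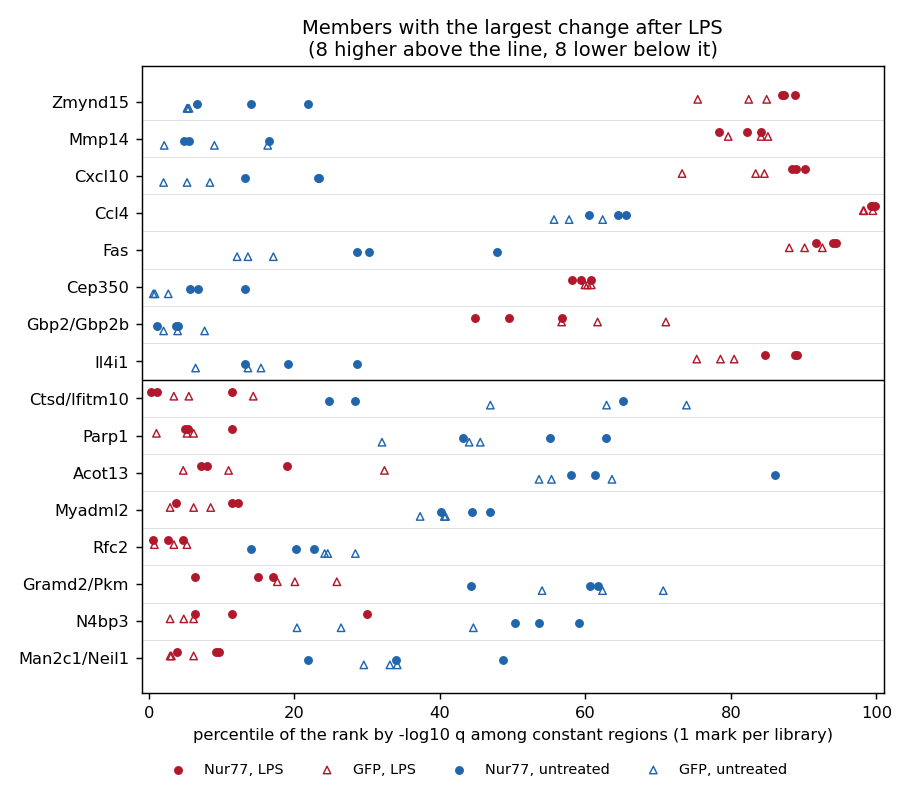
Percentile of the rank by −log10 q in each library for the 8 members with the largest rise (above the black line) and the 8 with the largest fall (below it) after LPS; red marks are libraries with LPS, blue marks untreated, filled circles the Nur77 line and open triangles the GFP line. Cxcl10 lies between 73.3 and 90.2 with LPS and between 2.01 and 23.3 untreated; Ctsd with Ifitm10 lies between 0.22 and 14.3 with LPS and between 24.7 and 73.9 untreated.

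Among the members at cytokine, chemokine and effector genes, 15 of 24 rose and 0 fell after LPS, with a median change of 0.48; 17 rose among members only and 10 in the ranking among all peaks. Cxcl2, a neutrophil chemokine, ranged over 98.7 to 99.7 with LPS and 64.4 to 88.4 untreated (1.79 ± 0.10). The shared region of Lta, Ltb and Tnf, which encode tumour necrosis factor and its relatives, was high throughout, with percentiles of 99.91 to 99.96 after LPS and 96.8 to 98.7 untreated, which did not overlap (1.22 ± 0.10). The 2 members at Il10, an anti-inflammatory cytokine, changed by 1.06 ± 0.15 and 0.66 ± 0.15, Csf1 by 0.75 ± 0.08, and Ptgs2, which encodes cyclooxygenase-2, by 0.77 ± 0.16; the weaker of the Il10 members (adjusted p = 0.0959) and Ptgs2 (adjusted p = 0.0894) did not pass among all peaks. Il6 did not pass (0.31 ± 0.13, adjusted p = 0.0646) except among members only (adjusted p = 0.0197), and Ccl2 did not (0.06 ± 0.09, adjusted p = 0.664).

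Of the 25 members at NF-kB pathway and feedback genes, 13 rose and 2 fell, with a median change of 0.28; the same counts were found among members only, and 7 rose and 1 fell among all peaks. Those that rose were at inhibitors and feedback genes as well as subunits. Nfkbiz, an atypical nuclear inhibitor of NF-kB, ranged over 92.2 to 94.1 with LPS and 52.0 to 77.3 untreated (1.17 ± 0.08), and the promoter of Tnip1, a partner of the deubiquitinase A20, over 63.1 to 80.4 and 19.2 to 42.7 (1.02 ± 0.11). Smaller rises were found at Tnfaip3 (0.28 ± 0.08), which encodes A20, Nfkb1 (0.51 ± 0.11), Rel (0.29 ± 0.08) and Socs3 (0.48 ± 0.08). The members at Rela with Sipa1 (−0.38 ± 0.09) and at Traf2 (−0.30 ± 0.09) fell, the former of which reached 3′ ends only. Tnfaip3, Nfkb1 and Traf2 did not pass in the ranking among all peaks, where their adjusted p was 0.0934, 0.068 and 0.094.

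Among immediate early genes 11 of 32 members rose and 0 fell, with a median change of 0.19; 12 rose among members only and 5 among all peaks. Maff, a small Maf factor, ranged over 94.2 to 97.8 with LPS and 73.9 to 84.1 untreated (0.94 ± 0.08), followed by Gadd45b (0.67 ± 0.10) and Csrnp1 (0.61 ± 0.09). Most of this list was already near the top in untreated cells, for example Gadd45b at 87.1 to 97.8. Of the 17 members on the macrophage surface list 2 rose and 4 fell, against 14.3% and 14.7% over all constant regions. Tlr2 (0.76 ± 0.09) and Cd14 (0.31 ± 0.08) rose. Csf1r with Hmgxb3, Csf1r alone, Fcgr1 and Tlr4, which encodes the receptor through which LPS acts, fell. Of these 4, Csf1r with Hmgxb3 and Fcgr1 passed among members only, and Csf1r with Hmgxb3 alone among all peaks.

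**Figure D4:**
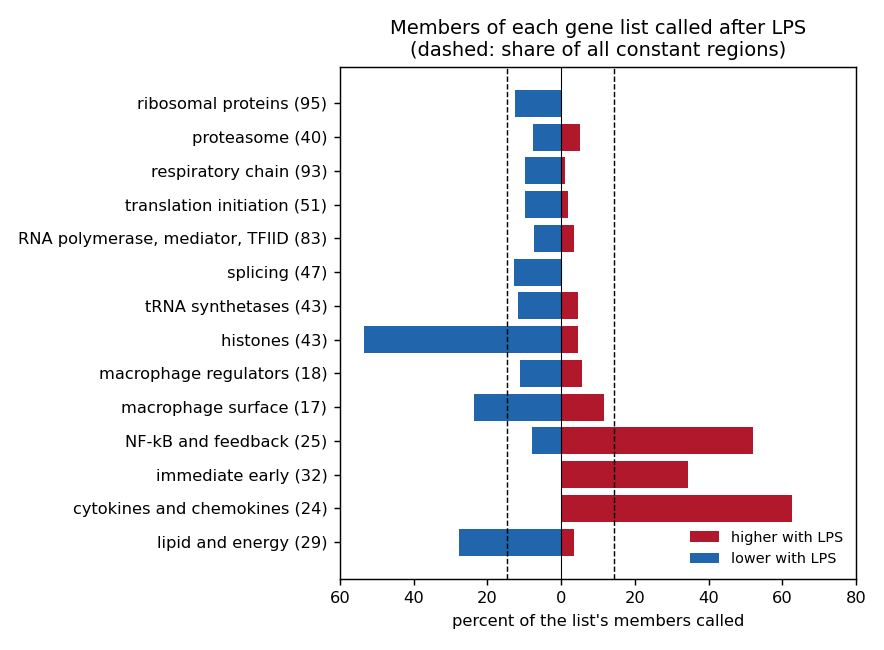
Percent of the members at each gene list that were called higher (red, right) or lower (blue, left) after LPS, for lists with at least 15 members, whose number stands in brackets. Dashed lines mark the 14.3% higher and 14.7% lower over all constant regions; 15 of 24 cytokine members were higher and 23 of 43 histone members lower.

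The members that fell most were of mixed function. The region of Ctsd, the lysosomal protease cathepsin D, with Ifitm10 (chr7:142366068-142380664), stood at 1.09, 11.4 and 0.22 in Nur77 cells with LPS and 14.3, 3.43 and 5.48 in GFP cells with LPS, against 24.7, 65.2 and 28.4 in untreated Nur77 cells and 73.9, 62.9 and 46.9 in untreated GFP cells (−1.81 ± 0.22, adjusted p = 1.76e-07). The region is 14597 bp wide, and its strongest summit moved over 4788 bp between libraries. The only gene start known there is that of Ifitm10. Parp1, a sensor of DNA breaks, fell at its 3′ end, to 1.03 to 11.4 with LPS, against 32.0 to 62.9 untreated (−1.58 ± 0.17). Acot13, an acyl-CoA thioesterase, ranged over 4.72 to 32.4 with LPS and 53.6 to 86.0 untreated (−1.54 ± 0.17).

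A member between Gramd2 and the 3′ side of Pkm, which encodes pyruvate kinase, ranged over 6.28 to 25.8 with LPS and 44.3 to 70.7 untreated (−1.22 ± 0.13). Myadml2 (−1.28 ± 0.16), Rfc2, a subunit of the clamp loader of DNA replication (−1.24 ± 0.21), N4bp3 (−1.18 ± 0.17) and Man2c1 with Neil1 (−1.18 ± 0.17) complete the 8. The members at N4bp3 and at Man2c1 with Neil1 reached 3′ ends only. In 7 of these 8 the libraries with LPS lay below all untreated ones; at N4bp3 they overlapped, with medians of 6.21 with LPS and 47.5 untreated. These 8 passed under each ranking. Of the 29 members at genes of lipid and energy metabolism 8 fell and 1 (Abca1, the cholesterol exporter) rose, with a median change of −0.12. Over all constant regions 14.7% fell and 14.3% rose. Ranked among members only 5 of the 29 fell, and 3 among all peaks. Srebf1, a regulator of lipid synthesis, fell by 0.44 ± 0.08, and Sqle and Fasn, enzymes of that synthesis, fell by 0.21 ± 0.07 and 0.24 ± 0.09. Srebf1 passed under each ranking, while Sqle, Fasn and the rise of Abca1 were lost among all peaks, and Sqle and Fasn also among members only.

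At histone genes 23 of 43 members fell and 2 rose after LPS, with a median change of −0.22; among members only 11 fell and 2 rose, and among all peaks 4 fell and 1 rose. H1f3, a linker histone gene, had a lowest, median and highest percentile of 37.6, 62.9 and 73.8 with LPS and 78.7, 84.7 and 90.5 untreated (−0.80 ± 0.11, adjusted p = 1.57e-06), so that its libraries did not overlap. The region at chr3:96246483-96252733 beside H3c14 and H2ac18 ranged over 11.1 to 47.7 with LPS and 37.3 to 58.0 untreated (−0.62 ± 0.14), while the neighbouring member that holds the H2ac18 promoter shown above did not pass (−0.21 ± 0.08, adjusted p = 0.0532). H4f16 ranged over 93.8 to 96.8 and 97.6 to 99.1 (−0.43 ± 0.08). The exceptions were H1f8 (0.58 ± 0.12) and H1f10 (0.64 ± 0.19), which encode linker histones and lie outside the clusters. Of those named, the H3c14 region and H1f10 did not pass among all peaks. Many histone genes are near-identical copies in clusters on chromosome 13 and chromosome 3, and how reads shared by copies were placed is not given in the sources used here. Of 61 histone promoter windows in members 82.0% held CCAAT and 54.1% held TATAAA, as the H1f3 and H2ac18 windows above do, against 38.9% and 6.14% of all windows in members.

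Members at ribosomal protein genes had 0 higher and 12 lower of 95, a share of lower calls under the background. For this list and those that follow, that background is 14.3% higher and 14.7% lower over all constant regions. The counts of higher and lower members were 2 and 3 of 40 for the proteasome, 1 and 9 of 93 for the respiratory chain, 3 and 6 of 83 for RNA polymerase, mediator and TFIID, 0 and 6 of 47 for splicing, 1 and 5 of 51 for translation initiation, 2 and 5 of 43 for tRNA synthetases, 0 and 1 of 10 for the CCT chaperonin and 0 and 2 of 6 for the MCM helicase. Median changes of these 9 lists ran from −0.14 to −0.03, and the counts of lower members were 0 to 7 among members only and 0 to 3 among all peaks. Among members only the medians of the proteasome and of RNA polymerase, mediator and TFIID turned to 0.01 and 0.04. Of the 18 members at lineage regulators 1 rose (Fli1) and 2 fell, Nfe2l2 among them; both falls were lost in the other rankings, where 2 rose among members only and 0 were called among all peaks. Of the 7 members at olfactory receptor genes 4 rose (Olfr432, Olfr101, Olfr433 and Olfr1230) and 1 fell (Olfr374); among members only 5 rose and 0 fell, and among all peaks Olfr432 and Olfr101 rose and 0 fell. The defensin member at Defb20 rose by 0.79 and passed under each ranking; these genes were not chosen for a role in macrophages.

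LPS calls also differed by the kind of gene end. At gene starts 318 of 6983 members rose (4.55%) and 1047 fell. At 3′ ends only, 97 (12.3%) rose and 146 (18.5%) fell, and at divergent starts 14 (1.62%) rose and 106 (12.3%) fell. These classes differ in mean percentile, as given above, and the difference between them was not tested. Promoter windows in members that rose held the NF-kB consensus in 18.1%, TGANTCA in 11.7% and the interferon-response letters in 6.02%, against 9.75%, 3.46% and 2.12% in members that fell and 10.9%, 4.50% and 2.95% in all members. Their observed to expected CpG ratio had a median of 0.67, against 0.77 in members that fell.

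Within some of the named members the strongest summit moved with LPS. In the Lta, Ltb and Tnf region it lay 61 to 152 bp inside the Tnf start in the libraries with LPS and 1353 to 1381 bp inside it in the untreated libraries. At Cxcl2 it lay at −182 to −76 bp from the start with LPS and −286 to −226 bp untreated, with negative values upstream; the NF-kB consensus letters of the window above begin at −97 and −96. At Fas it lay at −131 to −124 bp with LPS and −93 to −30 bp untreated. At Cxcl10 it stayed at −100 to −45 bp with LPS and −105 to −64 bp untreated, and NF-kB consensus letters begin at −159, −104 and −103. Il6, which was called for LPS among members only, had its summit at −117 to 68 bp with LPS, against 90 to 186 bp untreated. These 5 were picked from the named members after their values were seen, and the shifts were not tested.

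Between the lines, 515 members (5.38%) ranked higher and 324 (3.38%) lower in Nur77 than in GFP cells, averaged over both treatments. Over all constant regions 6.40% were higher and 8.22% lower, so both shares of the members were below the background. Leaving out the first Nur77 library with LPS brought the higher calls down to 341. Ranked among members only, 256 were higher and 344 lower, and ranked among all peaks 27 were higher and 256 lower. That last ranking moves the median change of all constant regions to −0.12, against 0.02 as reported here, and Nur77 lists held 36236 to 59914 peaks against 48342 to 81531 in GFP lists, so directions between the lines are relative to the set ranked. Under all 3 rankings 27 members were called higher and 241 lower. The shift of the ranking among all peaks favours that balance, so it is no separate support for a direction.

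Of the 324 members lower in Nur77 cells 241 passed under every ranking, which the shift of the ranking among all peaks favours. Glipr2 (chr4:43956235-43958823) stood at 1.48, 0.96 and 3.77 in Nur77 cells with LPS and 10.5, 0.61 and 2.90 in untreated Nur77 cells, against 53.1, 54.2 and 54.2 in GFP cells with LPS and 63.6, 60.0 and 50.6 in untreated GFP cells (−2.14 ± 0.18, adjusted p = 5.11e-10). Cstf2t (chr19:31082153-31083401), a factor of mRNA 3′ end processing, stood at 15.8 to 37.6 in Nur77 cells and 81.4 to 90.3 in GFP cells (−1.87 ± 0.11, adjusted p = 1.87e-13), with its summit within 27 bp of the start in every library. Tbc1d9, Nectin3 (a cell adhesion molecule), Sncb (beta-synuclein), the region of Adam8 and Spef1l, that of Rnf121 and Il18bp (the decoy receptor of interleukin 18), and that of Grin2c and Tmem104 followed, with changes of −1.68 to −1.34. The members at Sncb and at Grin2c with Tmem104 reached 3′ ends only. The 6 Nur77 libraries lay below the 6 GFP libraries in 7 of these 8 members; in Grin2c with Tmem104 they overlapped. All 8 passed under each ranking. Of all 324 lower members, 323 had the same sign with LPS and without it, which calls made on the mean over both treatments favour.

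Of the members higher in Nur77 cells, Zfp647 (chr15:76924975-76926380) had the largest change. It stood at 62.5, 54.5 and 49.4 with LPS and 60.8, 59.3 and 59.3 untreated in Nur77 cells, against 14.3, 6.14 and 8.49 with LPS and 10.5, 11.1 and 8.38 untreated in GFP cells (1.50 ± 0.13, adjusted p = 1.08e-09). Epop, an adapter of polycomb repressive complex 2, ranged over 40.8 to 61.1 in Nur77 cells and 0.39 to 19.2 in GFP cells (1.43 ± 0.19), and Mga, a MAX-binding repressor, over 50.7 to 62.5 and 2.29 to 30.9 (1.18 ± 0.14). Inppl1 with Phox2a, Cfap54, Rnf217, Dab2 with C9, and Cers4 changed by 1.07 to 1.26. The member at Inppl1 with Phox2a reached 3′ ends only. In 7 of the 8 the lines did not overlap, and at Rnf217 they did, with medians of 32.7 in Nur77 cells and 5.23 in GFP cells. Rnf217, Dab2 with C9 and Cers4 did not pass among all peaks.

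**Figure D5:**
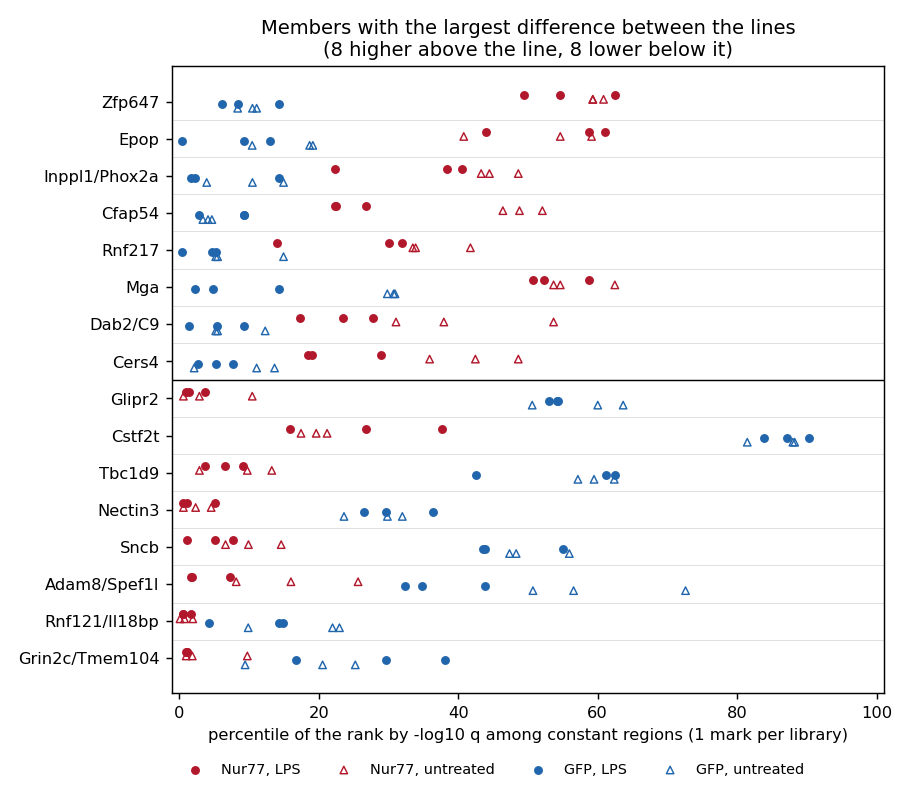
Percentile of the rank by −log10 q in each library for the 8 members most higher (above the black line) and the 8 most lower (below it) in Nur77 than in GFP cells; red marks are Nur77 libraries, blue marks GFP libraries, filled circles libraries with LPS and open triangles untreated ones. Glipr2 lies between 0.61 and 10.5 in Nur77 cells and between 50.6 and 63.6 in GFP cells; Zfp647 lies between 49.4 and 62.5 and between 6.14 and 14.3.

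Some inflammatory and phagocytic genes were lower in Nur77 cells, and those named here were picked because they were called lower. Other inflammatory genes were higher, and the counts by list follow in the next paragraph. Ccl2, a monocyte chemokine, ranged over 42.9 to 51.4 in Nur77 cells and 75.4 to 86.2 in GFP cells (−0.86 ± 0.09, adjusted p = 1.13e-08), and Fcgr3, a receptor for immunoglobulin G, with medians of 58.1 and 84.1 (−0.80 ± 0.08, adjusted p = 9.56e-09). Il6 ranged over 12.9 to 27.2 in Nur77 cells and 31.3 to 58.2 in GFP cells (−0.61 ± 0.13), Osm over 19.2 to 45.1 and 41.0 to 66.0 (−0.69 ± 0.12), and Lyz2, which encodes lysozyme, over 38.7 to 48.8 and 55.2 to 71.7 (−0.58 ± 0.10). Egr1, an immediate early zinc finger factor, ranged over 90.4 to 98.7 and 98.8 to 99.8 (−0.83 ± 0.11), and Mertk, a receptor for apoptotic cells, over 14.9 to 33.9 and 35.0 to 52.0 (−0.51 ± 0.13). At Ccl2, Fcgr3, Il6, Lyz2, Egr1 and Mertk the lines did not overlap, and at Osm they did. Mertk did not pass among all peaks, where its adjusted p was 0.051.

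By list, 4 of 24 cytokine members were lower and 3 higher in Nur77 cells, 4 of 17 macrophage surface members lower and 0 higher, 2 of 32 immediate early members lower and 1 higher, and 0 of 25 NF-kB members lower and 4 higher. Over all constant regions 8.22% were lower and 6.40% higher, and the small counts by list were not tested against these shares. The 3 higher cytokine members were Cxcl10 (0.60 ± 0.12), Csf2 (0.70 ± 0.22) and Ptgs2 (0.54 ± 0.16), the 4 NF-kB members Irak3, Ikbkb, Nfkb1 and Nfkbiz, with changes of 0.27 to 0.40, and the immediate early member Nr4a2, a relative of Nur77 (0.51 ± 0.12). None of these 8 passed in the ranking among all peaks, and among members only Cxcl10 and Nr4a2 did, so their direction is relative to the set ranked. The member at Nr4a1 itself, at chr15:101252148-101254791, ranged over 0.76 to 25.6 in Nur77 cells and 0.67 to 23.9 in GFP cells (0.10 ± 0.27, adjusted p = 0.849). Promoter windows of members higher in Nur77 cells had a median GC content of 65.7%, and those of lower members 59.0%. The E-box CACGTG occurred in 16.7% of windows of higher members and 7.25% of lower ones, against 11.1% in all members and 7.90% of all windows. AAAGGTCA occurred in 0.94% and 0.97%, against 0.81% in all members and 1.29% of all windows. TGANTCA occurred in 4.71% of windows of higher members and 11.6% of lower ones, against 4.50% in all members. Histone members were 2 higher and 0 lower, and genes of lipid and energy metabolism had 0 in each direction.

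No member's response to LPS was called different between the lines. The interaction gave 0 higher and 0 lower members by limma, as it gave 0% over all constant regions, and the smallest adjusted p was 0.131. Before adjustment, 389 members had p under 0.05 and a positive difference, that is a signed LPS change further towards a rise or a smaller fall in the Nur77 line, and 167 a negative one. Among the 15338 other constant regions, 548 had p under 0.05 with a positive difference and 784 with a negative one. The median difference over members was 0.05 as reported here and 0.007 among members only, so its direction is relative to the set ranked. Ranking among all peaks moved the median difference over all constant regions to 0.11, against 0.01 as reported here. Ranked among members only, 2 members passed: Polr3b, a subunit of RNA polymerase III (−1.30 ± 0.23, adjusted p = 0.0267), and Zfp3 (−1.29 ± 0.25, adjusted p = 0.0409). On the percentile scale 1 passed: Ccrl2, a chemerin-binding receptor, averaged 91.0 ± 2.25 with LPS and 40.9 ± 2.02 untreated in Nur77 cells, and 93.5 ± 1.36 with LPS and 70.1 ± 2.16 untreated in GFP cells (SD, n = 3 each), a difference of 26.7 percentile points between the LPS changes (adjusted p = 0.0416). These 3 were named after their values were seen.

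At the edge of the choice, the nearest constant region outside the window lay 1001 bp from an end of Pla2g5, at a mean percentile of 8.92. On the side of the calls, 553 gene-end regions were called in 11 of 12 lists. The missing library was the second untreated Nur77 library, the shortest list, in 291 of them and the first GFP library with LPS in 140. At the other extreme 1681 gene-end regions were called in 1 list.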

How the data were processed

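Open chromatin was measured by ATAC-seq in 12 libraries of RAW264.7 cells, and each was deposited as a peak list on mm10. Per the submitters' processing notes, cutadapt 2.6, DiffBind 3.0.15 and mm10 were used; which aligner and caller made the lists is not given in the sources used here. The peak names in the authors' files record a mapping quality minimum of 20, removal of mitochondrial reads and duplicates, and a q threshold of 0.001. The deposited lists give for each peak the authors' fold enrichment, the authors' −log10 p and −log10 q, and an integer score; the score, as deposited, was not used. Peaks were called per library. The read depth of the libraries is not used here, so no counting error could be given.

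Overlapping or touching peaks of all 12 lists were merged on chromosomes 1 to 11 and 13 to 19, and a region was constant if every list held a peak overlapping it by at least 1 bp. Gene ends came from RefSeq (GRCm38.p6). In each library a region took the −log10 q of its strongest peak, which was ranked among all constant regions and turned into a normal score; ranking by the authors' fold gave the same order. A model with 4 group means was fitted to all constant regions in limma 3.58.1 (R 4.3.3) with a trended prior, and p-values were adjusted by the Benjamini-Hochberg method over all of them at 0.05. Errors of changes are standard errors of that fit. The procedure was tested on simulated data. Merging, ranking and motif searches were done in Python 3.11.15 with pandas 2.3.3, scipy 1.17.1 and numpy 2.4.6, and figures with matplotlib 3.10.9.

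Named members are the 8 with the largest change per comparison and direction, the 8 strongest and 4 weakest, those with the smallest and largest range, called members of 6 macrophage gene lists (up to 8 per comparison and direction), and those at the edge of the window; other genes of the lists are given as examples. A few members that the rule names are not reported here. The members, gene lists and tests were chosen with earlier results of these data known. Ranks by other values and sets, equal list lengths, list length as a covariate, a filter on weak regions, the replicate number and each library left out were tried as alternatives. The replicate numbers of the titles were not used to pair libraries.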

Additional observations from a re-analysis of the deposited data

How the results depend on the processing

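Requiring a peak to cover 50% of the region in every list left 4999 members, and leaving out each library gave 9545 to 9862. Other definitions gave 9074 members with a window of 500 bp, 10532 with 2000 bp, 8804 with lists of equal length and 9364 with −log10 q of at least 5. Ranked among members only, 567 fell after LPS, 256 were higher in Nur77 cells and 2 had a negative interaction; among all peaks, 271 rose and 235 fell after LPS and 27 were higher in Nur77 cells. The last ranking turned the median Nur77 change over members to −0.09, against 0.04. On the percentile scale 1 interaction was positive. Leaving out each library gave 464 to 526 higher and 1172 to 1553 lower members after LPS, 341 to 573 higher and 262 to 344 lower in Nur77 cells, and 0 interactions; the lowest count of 341 came without the first Nur77 library with LPS. With the replicate block 533 rose and 1477 fell after LPS, 517 were higher and 322 lower in Nur77 cells, and 0 interactions passed. Same-numbered libraries had correlations of deviations of −0.158 to 0.145, of which 2 of 18 were above 0.1, and 6 of 12 libraries correlated best with their own number. Over 61 results for named members and 20 settings, 1124 values kept direction and call, 50 lost the call and 0 reversed; with lists of equal length 30 of the 61 could be computed. These results were named for being called as reported, which favours a kept call. Ranking by fold repeats the reported order, so its 61 unchanged values add nothing. The cause of each change was not tested. Presence in every list bounds the values from below, and ranks show no change that all constant regions share.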

Other observations

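Calls were spread unevenly over chromosomes. On chromosome 13, which holds the largest histone gene cluster, 88 of 355 members (24.8%) fell after LPS, against 15.4% of all members, and on chromosome 16, 29 of 301 (9.63%) were higher in Nur77 cells, against 5.38%. Neither was tested, and both chromosomes were singled out after the values were seen. Of the members at olfactory receptor genes, Olfr432 ranged over 64.6 to 74.2 with LPS and 12.1 to 43.3 untreated (1.16 ± 0.14, adjusted p = 1.37e-07), and Defb20, a beta-defensin gene, over 48.4 to 67.5 and 6.64 to 45.8 (0.79 ± 0.16, adjusted p = 0.000419). In both the libraries with LPS did not overlap the untreated ones. The strongest summit of the Egr1 region also lay apart in the 2 lines, at positions 34860026 to 34860354 of chromosome 18 in Nur77 libraries and 34861009 to 34861042 in GFP libraries, which was not tested.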
